A study of Mus musculus with 2 samples.

Results

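Genes for chromatin remodelling complexes and their close relatives were described in 2 RNA libraries from mouse morulae. The set was chosen by gene symbol. It took the Smarc, Chd, Ino80, Arid, Baz, Mta, Mbd, Gatad2, Brd, Ruvbl, Asf1 and Chaf1 families, together with Bptf, Actl6a, Atrx, Daxx, Hira, Rbbp4 and Rbbp7. The symbols matched 70 of the 12836 genes in the table. Chd3, Mbd2 and Smarca1, which the grouping by complex also foresaw, were not among the rows and were not analysed here.

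Both libraries came from ICR embryos at the morula stage, the compacted ball of cells that precedes the blastocyst. Embryos of the dsNat10 library had received double-stranded RNA against Nat10, the enzyme that acetylates cytidine in RNA. Those of the dsGFP library had received double-stranded RNA against GFP, which has no target in the mouse, so both groups were injected. The sources used here do not give the dose of RNA or the time from injection to collection. Each library is a pool of embryos, and there was 1 library per group. No difference below has a replicate check, no p-value could be given, and fewer cells of a type cannot be told apart from less RNA per cell.

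The libraries held 28303119 (dsNat10) and 29139232 (dsGFP) reads assigned to genes. Nat10 had 37 reads in dsNat10 and 886 in dsGFP, which left 4.22% of the control level (95% counting interval 2.95% to 5.86%). Of 10 markers of the morula and its early lineages, 9 were in the table and all 9 passed the filter on low values, with a summed TPM of 3281 in dsNat10 and 3929 in dsGFP. Among these, Nanog (fractional), Cdx2, Tead4 and Krt8 were more than 2-fold lower in dsNat10. The other 5 were not called, with log2 ratios of -0.73 for Pou5f1, -0.20 for Krt18, 0.05 for Cldn4, 0.34 for Tfap2c and 0.41 for Gata3. Markers of other cells summed to less, over fewer genes. Oocyte markers, of which 2 of 5 were in the table, summed to 29.3 and 6.52 TPM in dsNat10 and dsGFP, cumulus cell markers (2 of 5) to 23.9 and 27.0, and markers of blood or fibroblasts (3 of 6) to 63.9 and 57.3. Of the oocyte markers, Zp3 was higher in dsNat10, with 642 against 106 reads, and Gdf9 had 1 against 54 reads. In dsNat10, the blood or fibroblast markers Cd68 and Pecam1 stood at 32.7 and 31.1 TPM. The cumulus cell marker Amhr2 stood at 23.9 there, beside 2.90 for Cdx2 and 24.0 for Tead4. The other morula markers in the table were above all of these. Of these defining markers, Inhba and Col1a1 were at 0 in dsNat10 and none of those in the table was at 0 in dsGFP. The part that the lineage or oocyte markers play in the differences below was not tested.

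Chromatin remodellers are large machines that use an ATPase of the SNF2 family to slide, eject or exchange nucleosomes. The families are told apart by their ATPase, namely BAF (SWI/SNF), ISWI, CHD (which includes the NuRD deacetylase complex) and INO80. They work beside histone chaperones, which carry histones to DNA during and outside replication, and beside bromodomain proteins, which bind acetylated histones. In the early mouse embryo these factors accompany genome activation and the first separation of lineages. Brg1, the ATPase gene named Smarca4 here, is known to be needed for development around implantation.

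Levels are given as reads and as CPM, which is reads per 1000000 reads after TMM scaling, and folds are ratios of CPM with a 95% interval that covers counting error only. PCR copies of a molecule could not be recognised, since no molecular identifiers were used, and the intervals are too narrow for molecules. A gene was called higher or lower in dsNat10 if it averaged at least 5 CPM over the libraries, its log2 ratio of CPM plus 1 reached 1 in size, and the interval excluded equality. Levels of different genes are compared only in the authors' TPM, which divides by gene length.

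Of the 70 genes, 58 passed the filter and 12 did not. Of those that passed, 4 were higher in dsNat10, 10 were lower and 44 were within the size rule. Over all 8738 genes that passed, the rule called 15.2% higher and 15.3% lower, 30.5% in all, against 24.1% of the remodelling genes. Both shares rest on genes of low abundance, and a gene that passed through a high value in only 1 library had to differ. At 100 CPM and above, 2 of 23 remodelling genes were called (8.70%), against 4.87% of all such genes. Between 5 and 20 CPM, 7 of 16 were called (43.8%), against 54.7%. The median log2 ratio was -0.09 over the 58 genes and 0.01 over all genes that passed, and the spread (scaled median absolute deviation) was 0.73 and 0.84. With the genes at 0 set to their bound and no pseudocount, the median was -0.10 over the 58 and -0.11 over the 69 genes for which a ratio or bound could be given. The set as a whole therefore stood near the background, and what follows is about its single members and complexes. Counts of called genes per complex rest on few genes and on their abundance, so no conclusion is drawn from them.

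**Figure D1:**
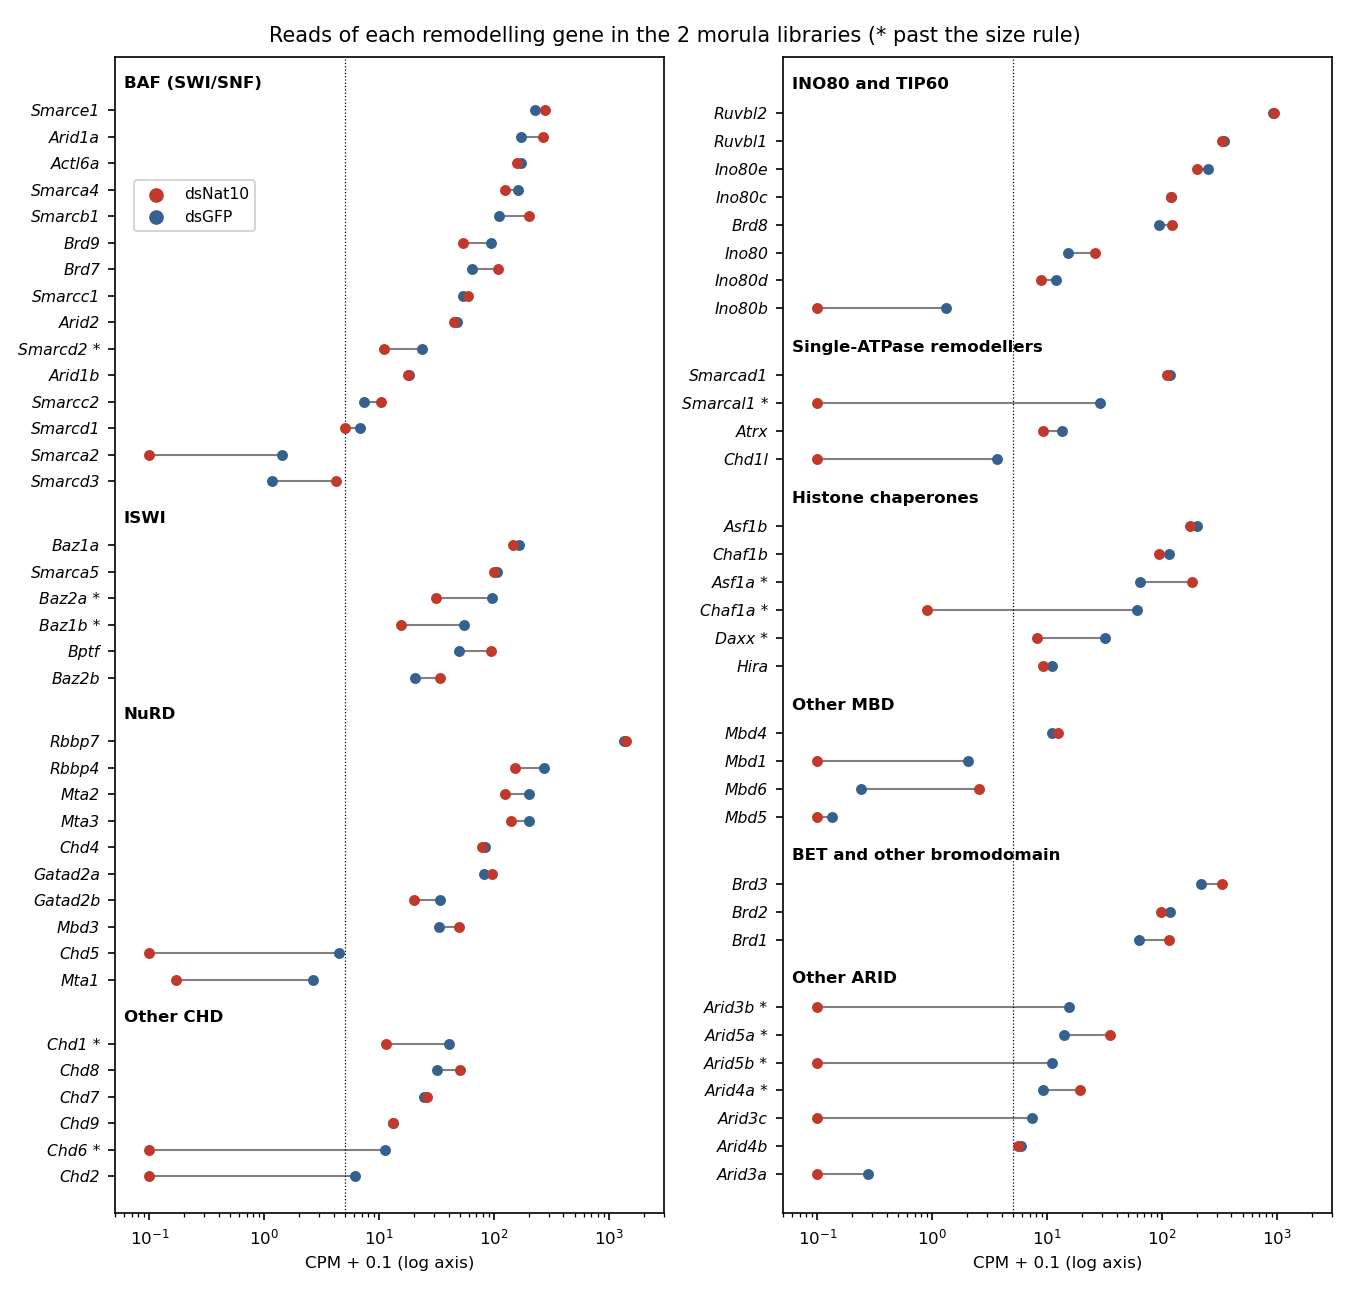
CPM plus 0.1 on a log axis for 69 of the genes, 1 point per library, by complex; an asterisk marks a gene past the size rule and the dotted line stands at 5 CPM. Most pairs of points lie close together, while 13 genes sit at 0 in dsNat10 and none at 0 in dsGFP.

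**Figure D2:**
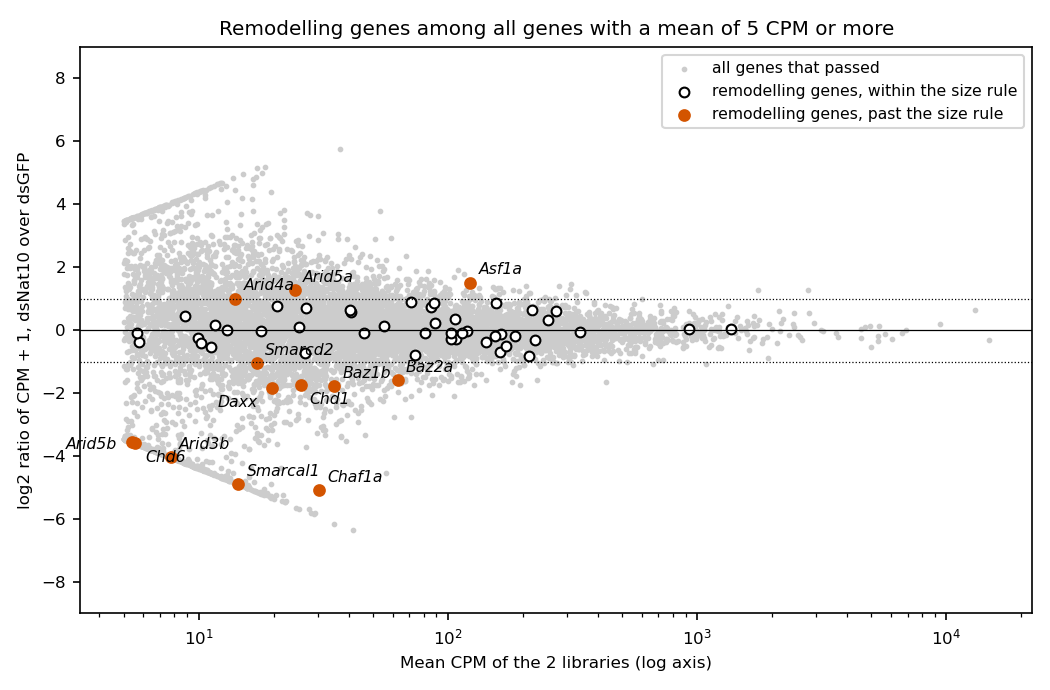
The log2 ratio (dsNat10 over dsGFP, CPM plus 1) against mean CPM on a log axis, for 8737 genes that passed the filter in grey and 57 remodelling genes among them in open or filled circles; dotted lines mark the size limit. Asf1a lies above the limit at over 100 CPM, and Smarcal1, Arid3b, Arid5b and Chd6 lie on the lower edge that genes at 0 in dsNat10 form.

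Histone chaperones held both the lowest ratio of the set among genes detected in both libraries and the highest ratio among genes that passed. Of 6 members, all of which passed, 1 was higher, 2 were lower and 3 were within the size rule. Over all genes that passed, 30.5% were called. Chaf1a, the large subunit of CAF-1, which deposits histones H3 and H4 on newly replicated DNA, had 23 reads in dsNat10 and 1731 in dsGFP. That is 0.81 against 59.97 CPM, or 74.5-fold lower (49.5 to 118). Chaf1a passed the filter through dsGFP alone and so had to differ. Its partner Chaf1b, the middle subunit, had 2673 against 3271 reads and was 1.21-fold lower (1.15 to 1.28). The subunits of this complex thus differed in how far they stood from the control library. In dsGFP, Chaf1a stood at 27.2 TPM beside 92.7 for Chaf1b, and in dsNat10 at 0.38 beside 79.8.

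Asf1a and Asf1b are paralogous chaperones that hand H3-H4 dimers to CAF-1 and HIRA. Asf1a had 5221 reads in dsNat10 and 1838 in dsGFP, 2.87-fold higher (2.72 to 3.03), though its counts are fractional in the table and so uncertain. Asf1b had 4996 against 5734 reads, 1.14-fold lower (1.09 to 1.18). In TPM, Asf1a went from 45.0 in dsGFP to 134 in dsNat10, while Asf1b was at 199 and 183. Asf1b was the more abundant paralogue in both libraries, but Asf1a made up 18.4% of the pair in dsGFP and 42.4% in dsNat10.

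The genes with the outermost ratios of this group overlap a neighbour on the opposite strand, and the library kit does not mark strand. In GENCODE M21, exons of Chaf1a (chromosome 17, 56040416 to 56068026 in GRCm38.p6) overlap those of Ubxn6 over 4648 bases, counting all annotated transcripts, and 49.7% of the 50-base stretches of its transcripts also stand in other genes. Ubxn6 had 2146 reads in dsNat10 and 1155 in dsGFP, 1.88-fold higher. Taken as a pair, Chaf1a and Ubxn6 had 2169 against 2886 reads, 1.32-fold lower (1.25 to 1.39). Asf1a (chromosome 10, 53596961 to 53609225) overlaps Mcm9 over 1748 bases and shares 43.1% of its stretches with it. Mcm9 had 21 reads in dsNat10 and 243 in dsGFP, and the pair had 5242 against 2081 reads, 2.54-fold higher (2.42 to 2.68). The difference of Asf1a was thus nearly as large for the pair, while that of Chaf1a was far smaller. Mcm9 had few reads beside Asf1a, so the ratio of that pair was bound to lie near that of Asf1a. How the counting divided reads between these genes was not tested.

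The start regions of these 4 genes are shown because the members of each pair, which serve 1 pathway, stood apart in the data. Each is the RefSeq window of GRCm38.p6 from 250 bases before the annotated start to 50 after it, on the coding strand, with CCAAT or its reverse complement ATTGG in capitals.
Chaf1a, chr17:56040166-56040465, plus strand: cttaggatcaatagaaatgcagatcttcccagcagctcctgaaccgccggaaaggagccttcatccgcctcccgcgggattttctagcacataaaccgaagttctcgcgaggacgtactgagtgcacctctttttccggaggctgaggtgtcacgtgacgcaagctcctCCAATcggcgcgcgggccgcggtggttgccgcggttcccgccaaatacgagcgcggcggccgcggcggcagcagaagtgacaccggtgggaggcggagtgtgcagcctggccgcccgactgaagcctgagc
Chaf1b, chr16:93883651-93883950, plus strand: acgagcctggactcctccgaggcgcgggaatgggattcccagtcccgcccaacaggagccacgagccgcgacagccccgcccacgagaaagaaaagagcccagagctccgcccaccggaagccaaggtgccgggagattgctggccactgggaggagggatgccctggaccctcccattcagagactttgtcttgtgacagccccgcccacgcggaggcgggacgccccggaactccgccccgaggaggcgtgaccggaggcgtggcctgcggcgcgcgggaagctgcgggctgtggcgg
Asf1a, chr10:53596711-53597010, plus strand: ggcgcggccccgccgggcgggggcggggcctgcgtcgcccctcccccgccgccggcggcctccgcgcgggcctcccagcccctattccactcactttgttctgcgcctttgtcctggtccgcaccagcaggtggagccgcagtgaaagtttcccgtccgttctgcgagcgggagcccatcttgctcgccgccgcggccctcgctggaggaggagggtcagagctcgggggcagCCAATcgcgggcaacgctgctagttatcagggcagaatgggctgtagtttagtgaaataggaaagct
Asf1b, chr8:83955444-83955743, plus strand: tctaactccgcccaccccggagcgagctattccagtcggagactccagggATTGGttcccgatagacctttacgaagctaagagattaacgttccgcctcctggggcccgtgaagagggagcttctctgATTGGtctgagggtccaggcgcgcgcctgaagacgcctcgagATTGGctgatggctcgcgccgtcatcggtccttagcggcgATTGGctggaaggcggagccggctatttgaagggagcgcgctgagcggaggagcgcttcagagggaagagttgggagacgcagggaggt
Asf1b held 4 such boxes, Chaf1a 1, Asf1a 1 and Chaf1b 0. The GC-rich motif GGGCGG, searched on both strands, was found 5 times in Chaf1b, 2 times in Asf1a and once each in Chaf1a and Asf1b. Windows were found for 56 of the 70 genes, 72 in all. Of these 72, 38.9% held CCAAT and 83.3% GGGCGG on either strand, against 37.4% and 35.7% of all 32851 windows in the table. TATAAA was in 6.94% of the windows of remodelling genes and in 13.6% of all windows. The windows of all genes were not limited to genes detected in these embryos, so the sets compared are unlike. The differences in share therefore cannot be read as a trait of remodelling genes. These are matches of letters and say nothing of binding.

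The chaperones of the replacement histone H3.3 also differed between themselves. Daxx, which works with the ATPase Atrx at heterochromatin and telomeres, had 230 reads in dsNat10 and 906 in dsGFP, 3.90-fold lower (3.37 to 4.53). Hira, which deposits H3.3 at genes, had 257 against 313 reads, 1.21-fold lower (1.02 to 1.43). Atrx itself had 257 against 385 reads, 1.48-fold lower (1.26 to 1.74), short of the size rule. All 3 stood below 20 TPM in both libraries, with Daxx at 5.17 in dsNat10 and 19.0 in dsGFP.

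The BAF complex had 1 of 13 members that passed called, against 30.5% of all genes, and most of its core subunits were within the size rule. Smarca4, its ATPase in these embryos, had 3516 reads in dsNat10 and 4658 in dsGFP, 1.31-fold lower (1.25 to 1.37). The alternative ATPase Smarca2 (Brm) was nearly undetected, with 0 reads against 38, and did not pass the filter. Smarcb1, a core subunit that binds the nucleosome, was higher, with 5767 against 3185 reads (1.83-fold, 1.75 to 1.91). Smarce1 (1.25-fold, 1.21 to 1.29) and the scaffold Smarcc1 (1.10-fold, 1.03 to 1.19) were higher by less. Smarcd2 was the called member, with 310 against 674 reads, 2.15-fold lower (1.88 to 2.47), but its log2 ratio of -1.04 lies at the limit and fell inside it in TPM (-0.94). Of its paralogues, Smarcd1 had 140 against 192 reads, and Smarcd3, below the filter, had 116 against 31. Exons of Smarcd3 overlap those of Chpf2 on the opposite strand, and Chpf2 had 615 against 357 reads. As a pair, Smarcd3 and Chpf2 had 731 against 388 reads, 1.90-fold higher (1.68 to 2.16). How the counting divided these reads was not tested.

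The subunits that set apart the forms of BAF went different ways. Arid1a, the large DNA-binding subunit of canonical BAF, had 7531 reads in dsNat10 and 4913 in dsGFP, 1.55-fold higher (1.49 to 1.61). Its paralogue Arid1b, with fractional counts, had 505 against 519. Brd7, the bromodomain subunit of PBAF, was 1.68-fold higher (1.58 to 1.78), with 3069 against 1848 reads. Brd9, which marks the non-canonical form, was 1.74-fold lower (1.63 to 1.85), with 1535 against 2698 reads. Arid2, the other defining subunit of PBAF, had 1265 against 1372 reads, a ratio whose interval included equality. Brd7 and Brd9 therefore changed places in the order of TPM, with 40.0 and 58.4 in dsGFP and 72.5 and 35.2 in dsNat10. Actl6a, an actin-related subunit shared with INO80 and TIP60, had 4469 against 4882 reads.

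In the ISWI family, the partner subunits differed while the ATPase did not do so by much. Smarca5 (Snf2h), the ATPase, had 2827 reads in dsNat10 and 3064 in dsGFP, 1.07-fold lower (1.02 to 1.13). Baz1b, which joins it in the WICH complex at replication sites, had 435 against 1575 reads, 3.58-fold lower (3.22 to 3.99). Baz2a, which joins it in NoRC and silences ribosomal RNA genes, had 883 against 2740 reads, 3.07-fold lower (2.85 to 3.32). Those were the 2 called genes of 6, all of which passed, beside 30.5% of all genes called. In contrast, Bptf, the large subunit of NURF, had 2673 against 1422 reads (1.90-fold higher, 1.78 to 2.03), and Baz2b, with fractional counts, 960 against 581 (1.67-fold higher, 1.50 to 1.85). Baz1a, the partner in ACF and CHRAC and the most abundant member at 44.8 TPM in dsNat10 and 50.03 in dsGFP, was 1.14-fold lower (1.10 to 1.19).

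None of the 8 NuRD members that passed was called, and 5 of these had ratios below 0. Mta2, Mta3, Rbbp4 and Rbbp7 averaged over 100 CPM, where 4.87% of all genes were called. NuRD joins a CHD remodeller to histone deacetylases. Its ATPase Chd4 had 2242 reads in dsNat10 and 2415 in dsGFP, 1.07-fold lower (1.01 to 1.13). The scaffold proteins for the deacetylases were lower, Mta2 by 1.61-fold (1.54 to 1.68), with 3565 against 5789 reads, and Mta3 by 1.42-fold (1.36 to 1.48), with 4032 against 5780. Their relative Mta1 had 2 against 74 reads and did not pass. Rbbp4, a histone-binding protein that NuRD shares with CAF-1, had 4343 against 7811 reads, 1.78-fold lower (1.72 to 1.85). Its paralogue Rbbp7 had 39917 against 38975 reads and was the most abundant gene of the whole set in both libraries, at 989 and 917 TPM. Mta3, Rbbp4 and Rbbp7 have fractional counts.

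The remaining NuRD subunits were split between higher and lower. Mbd3, the subunit that stands in for Mbd2, had 1405 reads in dsNat10 and 946 in dsGFP, 1.50-fold higher (1.38 to 1.63). Gatad2a, which bridges the remodelling and deacetylase parts, was 1.18-fold higher (1.11 to 1.24), and Gatad2b 1.69-fold lower (1.53 to 1.88). Chd5, the remaining ATPase in the table, had 0 against 127 reads and did not pass.

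The other CHD remodellers were scarce, with at most 8.85 TPM in either library. Chd1, a remodeller of transcribed genes that is known in pluripotent cells, had 326 reads in dsNat10 and 1163 in dsGFP, 3.53-fold lower (3.12 to 4.0). Chd6 had 0 against 321 reads, at least 106-fold lower, taking 3 reads as the floor for the library at 0. Chd2 had 0 against 174 and did not pass the filter. Chd8, however, was 1.58-fold higher (1.45 to 1.72), with 1422 against 910 reads, and Chd7 (745 against 702) and Chd9 (371 against 373, fractional) had intervals that included equality. Of the 5 members that passed, 2 were called, both lower, beside 30.5% of all genes called. Chd6 passed the filter through dsGFP alone and so had to differ.

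None of the 7 INO80 and TIP60 members that passed was called, and their log2 ratios ran from -0.41 to 0.76. Of these 7, 5 stood above 100 CPM, where 4.87% of all genes were called. Ruvbl1 and Ruvbl2, the paired AAA+ ATPases of INO80, SRCAP and TIP60, had 9509 against 9927 reads (1.03-fold lower) and 26825 against 26641 reads (1.02-fold higher, fractional). The ATPase Ino80 was the highest, with 746 reads in dsNat10 and 432 in dsGFP, 1.74-fold higher (1.55 to 1.97). Brd8, the bromodomain subunit of TIP60, was 1.29-fold higher (1.23 to 1.36, fractional). Of the smaller subunits, Ino80c had 3391 against 3462 reads, Ino80e 5676 against 7168 (fractional) and Ino80d 248 against 342, while Ino80b had 0 against 35 and did not pass.

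Among the ATPases that act outside these families, 1 of the 3 that passed was called, beside 30.5% of all genes. This was Smarcal1, which passed the filter through dsGFP alone and so had to differ. Smarcal1, which anneals DNA strands at stalled replication forks, had 0 reads in dsNat10 and 833 in dsGFP, at least 275-fold lower. Chd1l, a remodeller recruited by poly(ADP-ribose), had 0 against 103 reads and did not pass. Smarcad1 had 3165 against 3396 reads (1.06-fold lower, fractional) and was the abundant member, at 146 and 166 TPM.

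The bromodomain proteins Brd1, Brd2 and Brd3, outside these complexes, were all within the size rule. Brd1, the scaffold of a histone acetyltransferase complex, was 1.82-fold higher (1.72 to 1.93), with 3262 reads in dsNat10 against 1807 in dsGFP. Brd3, a BET protein that reads acetylated histones, was 1.53-fold higher (1.48 to 1.58), with 9398 against 6221. Its paralogue Brd2 was 1.20-fold lower (1.15 to 1.27), with 2792 against 3398. In TPM, Brd2 and Brd3 stood at 55.1 and 60.0 in dsGFP and at 51.2 and 95.2 in dsNat10.

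Proteins with an ARID or MBD domain outside the complexes above were scarce, and 6 of the 13 genes at 0 in dsNat10 belong to them. Arid3b had 0 reads in dsNat10 and 446 in dsGFP (at least 147-fold lower) and Arid5b 0 against 313 (at least 103-fold lower). Both passed the filter through dsGFP alone and so had to differ. Arid3c had 0 against 209 and Arid3a 0 against 5, and neither passed. Arid5a, an ARID protein that also binds mRNA, was 2.53-fold higher (2.25 to 2.85), with 993 against 397 reads. Arid4a, a partner of the SIN3 corepressor, was 2.12-fold higher (1.83 to 2.47), with 546 against 260, while its paralogue Arid4b had 156 against 169. The log2 ratio of Arid4a was 1.01 and fell short of the limit in TPM (0.85). Of the MBD proteins, the DNA glycosylase Mbd4 alone passed, with 351 against 316 reads (fractional), while Mbd1 had 0 against 56, Mbd5 0 against 1 and Mbd6 70 against 4.

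Genes at 0 were found in dsNat10 only. Of the 70 genes, 13 were at 0 reads in dsNat10 and 0 in dsGFP. Of the 13, 4 passed the filter, through dsGFP alone, and so had to differ. Such zeros were common in that library, where 2657 of all 12836 genes were at 0, against 458 in dsGFP. Where dsGFP had 100 to 299 reads, 4 of 8 remodelling genes and 31.0% of all genes were at 0 in dsNat10. Where it had 300 to 999 reads, these were 4 of 19 and 10.2%. Where it had 1000 or more, none of 35 remodelling genes was at 0, and 0.294% of all genes were. Bounds on the fold of such genes cover counting error alone and not the frequency of zeros in this library.

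Levels were also summed over each complex in TPM. INO80 and TIP60 genes summed to 1644 in dsNat10 and 1593 in dsGFP, NuRD genes to 1361 and 1389, and histone chaperones to 406 and 388. BAF genes summed to 730 against 586, 1.25 times the control level. Much of that difference came from Smarcb1, at 205 against 108 TPM. Over the 13 BAF members that passed, the median log2 ratio was -0.02, with 6 above 0 and 7 below. ISWI genes summed to 107 against 123, single-ATPase remodellers to 148 against 183, other CHD genes to 15.7 against 19.7 and other ARID genes to 16.8 against 24.5. The NuRD sum rests on Rbbp7, which held 72.7% of it in dsNat10 and 66.1% in dsGFP, and without this gene the sum was 0.790 times the control level. Rbbp7, Ruvbl1 and Ruvbl2 together made up 47.2% of the summed TPM of the 70 genes in each library.

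**Figure D3:**
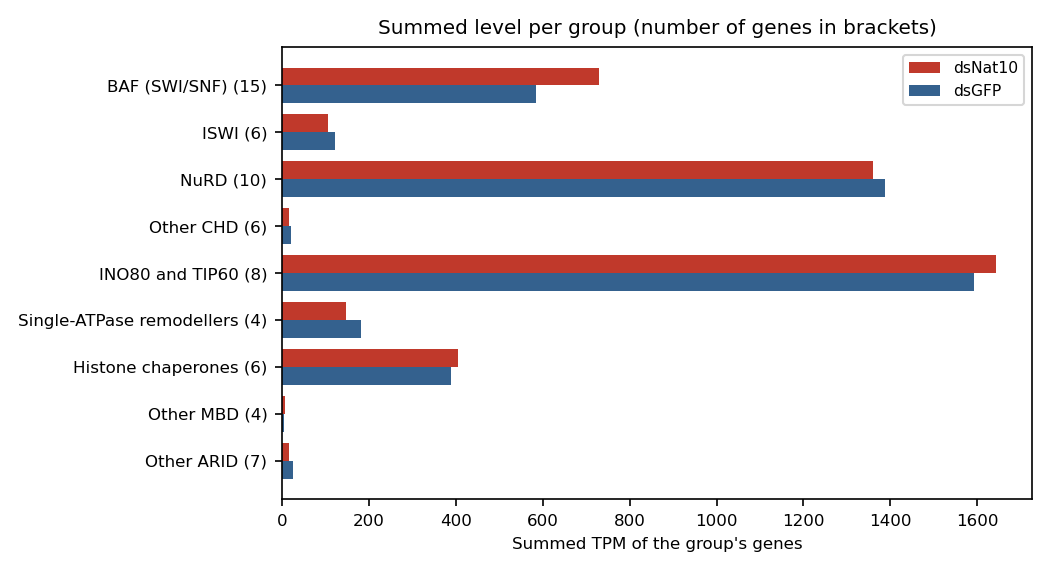
Summed TPM of the genes of each of 9 groups (each gene counted once), 1 bar per library, with the number of genes in brackets. The BAF sum (730 against 586) is higher in dsNat10, with much of the difference from Smarcb1 (205 against 108). The sums of INO80 and NuRD are close to level.

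The balance of pairs of paralogues was compared as shares of their summed TPM. The genes of a pair need not fill the same place in a complex. Brd7 belongs to PBAF and Brd9 to the non-canonical form of BAF, while Brd2 and Brd3 stand outside these complexes. Exchange of subunits within a complex was not tested. For 13 pairs in which both genes passed the filter, the shares are plotted. Baz2a made up 83.4% of its pair with Baz2b in dsGFP and 47.3% in dsNat10. The share of Brd7 in its pair with Brd9 was 40.6% in dsGFP and 67.3% in dsNat10. Brd2 held 47.9% of its pair with Brd3 in dsGFP and 35.0% in dsNat10. The share of Gatad2a against Gatad2b was 80.3% in dsGFP and 88.9% in dsNat10, and that of Arid4a against Arid4b 66.2% and 80.7%.

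Other pairs moved by fewer percentage points, though a share near 0% or 100% moves little even where the ratio of the genes changes. Ruvbl1 held 27.1% of its pair with Ruvbl2 in dsGFP and 26.2% in dsNat10, and Mta2 held 34.9% and 32.2% of its pair with Mta3. Smarcc1 made up 86.2% and 83.1% of its pair with Smarcc2, and Arid1a 92.2% and 93.9% of its pair with Arid1b. Rbbp4 was the minor partner of Rbbp7 throughout, with 9.01% in dsGFP and 5.10% in dsNat10, a change of -0.88 in the log2 ratio of the pair. The same change was -0.07 for Ruvbl1 over Ruvbl2, -0.17 for Mta2 over Mta3, -0.34 for Smarcc1 over Smarcc2 and 0.37 for Arid1a over Arid1b. In these pairs the more abundant gene was the same in both libraries. Of the 13 pairs, only Brd7 with Brd9 and Baz2a with Baz2b changed which gene was the more abundant.

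**Figure D4:**
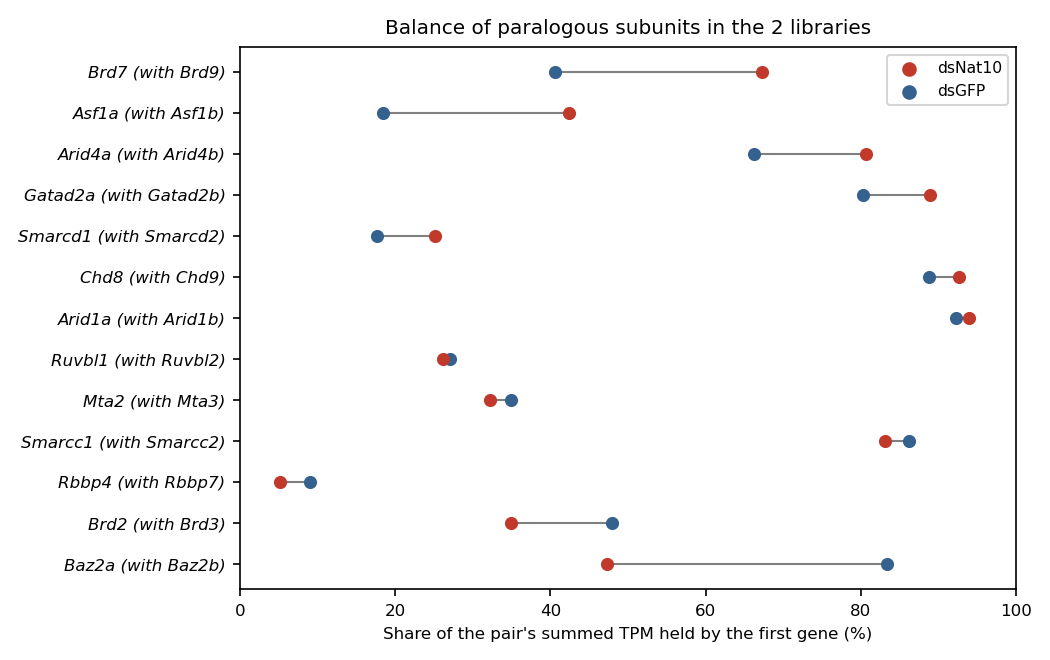
Share (%) of the summed TPM of a paralogue pair held by the gene named first, 1 point per library, for 13 pairs in which both genes passed the filter. The widest gaps are those of Baz2a, Brd7 and Asf1a, and the Ruvbl1 share is nearly level.

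Subunits of the same complexes that the symbol rule did not take were counted from a list of 61 further genes. Of these, 60 were in the table and 54 passed, with 5 higher and 8 lower, 24.1% in all against 30.5% of all genes. Among partners of BAF, Phf10, a subunit of PBAF, had 542 reads in dsNat10 and 0 in dsGFP, at least 183-fold higher, with fractional counts. Pbrm1, the polybromo subunit of the same form, was 2.15-fold higher (1.85 to 2.51) and Dpf3 4.51-fold higher (3.43 to 5.99). Those were the 3 called of 8 BAF partners that passed. Of the others, Dpf2 was 1.24-fold lower, Bcl7a 1.29-fold lower, Ss18 1.03-fold lower and Bcl7b 1.11-fold higher. Phf10 and Dpf3, the latter at 2.25 CPM in dsGFP, passed the filter only through dsNat10 and so had to differ. The most abundant partner was Actb, beta-actin, which was 1.57-fold higher (fractional).

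The swap of the variant histone H2A.Z is carried out by SRCAP and by the p400 form of TIP60. Srcap, the ATPase of the former, had 86 reads in dsNat10 and 1011 in dsGFP, 11.6-fold lower (9.33 to 14.7). Vps72, which binds H2A.Z, was 3.39-fold lower (3.17 to 3.63). Ep400, the ATPase of the p400 form, was 2.77-fold higher (2.60 to 2.95), with 3512 against 1282 reads. Of other TIP60 genes, Mbtd1 was 6.14-fold lower (4.65 to 8.25), Epc2 had 1 read against 596 (a ratio of 590-fold, 105 to 23339) and Mrgbp had 303 against 0 (at least 102-fold higher). Epc2 passed the filter through dsGFP alone and Mrgbp through dsNat10 alone, so both had to differ. Srcap and Mbtd1 stood at only 3.01 and 2.03 CPM in dsNat10. They too passed through dsGFP and were nearly bound to differ. Actr8, an actin-related subunit of INO80, was 2.29-fold lower (2.10 to 2.49). In this list of 23 partners that passed, 2 were higher and 5 lower, a share near the 30.5% of all genes. The most abundant partner was Znhit1 in dsNat10 (232 TPM, against 219.8 in dsGFP) and Morf4l1 in dsGFP (272 TPM, against 157 in dsNat10), both with fractional counts and neither called.

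The histone chaperone list had 1 of 13 called, against 30.5% of all genes. This was Dnajc9, a co-chaperone of histones H3 and H4, at 2.75-fold lower (2.60 to 2.90). The abundant Set was 1.07-fold lower. None of the 3 NuRD partners was called, though Hdac1, its deacetylase, had 8193 against 16131 reads, 1.95-fold lower (1.90 to 2.0), while Hdac2 had 670 against 647. Cdk2ap1, the most abundant of them, was 1.03-fold lower. None of the 4 ISWI partners was called, the most abundant being Pole3 at 136 TPM in dsNat10 and 149 in dsGFP, 1.14-fold lower (1.05 to 1.24). Of 3 further SNF2 ATPases, Rad54l was 2.66-fold lower (2.47 to 2.87) and Ercc6 2.32-fold lower (2.0 to 2.71), both with fractional counts, and Hells, also fractional, was 1.08-fold higher.

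Fractional counts were found for 12 of the 70 genes, of which 1, Asf1a, was called. Of these 12, 11 share at least 1 stretch of 50 bases with a transcript of another gene in GENCODE M21, with a median of 3.68% of stretches shared. Of the 58 genes with whole counts in both libraries, 38 share such a stretch, with a median of 0.444%. The 2 groups overlapped, since Chaf1a, with whole counts, shares 49.7% of its stretches and Arid1b, with fractional counts, 0%. Why some counts are fractional was not tested. Rbbp4 overlaps Sync and Rbbp7 overlaps Txlng on the opposite strand, and the shared stretches were 17.2% and 11.2% of theirs. Together with Sync, Rbbp4 was 1.85-fold lower (1.78 to 1.92), beside its own 1.78-fold. Sync had only 285 reads in dsNat10 and 833 in dsGFP, so the ratio of the pair was bound to lie near that of Rbbp4.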

How the data were processed

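RNA from morulae of the dsNat10 and dsGFP groups was made into SMART-seq2 libraries and sequenced with paired ends, per the labels. Trim Galore, HISAT (on GRCm38) and HTSeq were used, per the submitters' processing notes, whose versions the sources used here do not give. The deposited table holds estimated counts, unnormalized and fractional for 23.2% of genes, and the authors' TPM and FPKM, scaled by gene length and library.

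Estimated counts were rounded and scaled by TMM (edgeR 4.0.16, R 4.3.3), and ratios were computed with a pseudocount of 1 CPM and exact Clopper-Pearson 95% intervals (scipy 1.17.1). A size rule took the place of a test. It was checked only on simulated counts that held counting error alone. Such counts lack the variation between embryos and from amplification, so the check cannot show how the rule behaves with these. Alternatives were library totals, DESeq2 1.42.0 size factors, other filters, a pseudocount of 0.1, TPM, FPKM, and leaving out fractional counts. Intervals of paralogue ratios used the normal approximation of the log odds. All 70 genes matched the RefSeq table of GRCm38.p6 by Entrez identifier.

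Members could be named. Partner genes were named where called or the most abundant of their complex. Hdac1, Hdac2, Hells, Dpf2, Bcl7a, Bcl7b, Ss18 and the genes that overlap a member were added after their values were seen. A gene that the rule takes is not reported here, though it counts in the totals. Members and lists were chosen with earlier results of these data known.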

Additional observations from a re-analysis of the deposited data

How the results depend on the processing

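With 1 library per group, none could be left out. No paired analysis was possible because the result comes from no test and each group has 1 library. The count of 10 lower genes became 18 with no filter on mean CPM and 4 when a mean of 20 CPM was asked. Those settings admit more or fewer genes. With no filter, 34.3% of the remodelling genes were called in either direction, against 38.4% of all genes. At 20 CPM or more, these shares were 16.7% and 17.9%. The count of 4 higher genes lay between 3 and 6 in every alternative run. No called gene changed direction under any alternative. Smarcd2 and Arid4a lost their call in TPM and FPKM (BAF lower 0, other ARID higher 1 in each), and Arid4a with DESeq2 size factors (other ARID higher 1). With no filter, the counts called became 1 higher and 2 lower in BAF, 2 lower in NuRD, 1 lower in INO80 and TIP60, 2 lower among single ATPases, and 1 higher and 1 lower among other MBD genes. At 20 CPM or more they became 0 lower in BAF, 1 lower in other CHD, 0 lower among single ATPases, 1 lower among chaperones, and 1 higher and 0 lower in other ARID, and the partner list had 1 higher and 4 lower. Without fractional counts, 0 chaperones were higher, since Asf1a is left out. From scaled counts in place of TPM, the log2 change of the paralogue ratio was 0.66 for Arid1a over Arid1b (0.37 in TPM) and -0.88 for Brd2 over Brd3 (-0.77 in TPM), and the cause was not tested. Depth limits the genes with under 5 CPM, 12 of the 70.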

Other observations

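The deposited counts and TPM values imply a length for each gene, which can be compared between the libraries where TPM is 1 or more in both. For 42 of 52 remodelling genes this length, relative to the median gene, was within 5% of equal in dsNat10 and dsGFP. It was shorter in dsNat10 for Arid1b (ratio 0.82), Mbd4 (0.85), Ino80e (0.88), Ino80 (0.91), Baz2b (0.91) and Brd2 (0.93). It was longer for Hira (1.20), Smarcad1 (1.11), Chd7 (1.08) and Arid4a (1.07). Of these 10, 5 have fractional counts. For Arid1b the log2 ratio was -0.02 from counts and 0.25 in TPM. The sources used here do not say how the lengths were derived.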
